A study of Mus musculus with 2 samples.

Results

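The CXC chemokines Cxcl1, Cxcl2, Cxcl3, Cxcl5, Ppbp and Pf4 and the receptor Cxcr2 were followed across the cell types of the mouse cornea and limbus, the tissue at the rim of the cornea. These 7 genes were chosen by name, out of 32285 in the deposited matrices, and all 7 had UMIs (unique molecular identifiers, each counting 1 captured mRNA molecule) in both libraries. The study compared 1 library from uninjured mouse anterior eye with 1 library after an alkali (NaOH) burn. Both libraries had the genotype wt. Lens, retina, iris, trabecular network and most of the conjunctiva had been cut away before the tissue was digested with liberase and then trypsin. The labels give no strain, sex, age or time after the burn. With 1 library in each group there is no replicate check and no test. Intervals below are 95% intervals that cover counting error only, and injury, animal and library cannot be told apart.

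CXCR2 is the G protein-coupled receptor through which neutrophils follow gradients of CXC chemokines into inflamed tissue. Cxcl1, Cxcl2, Cxcl3, Cxcl5 and Ppbp, whose product is trimmed to CXCL7, encode ligands of this receptor. Pf4 encodes platelet factor 4, a neighbour in the same gene cluster that lacks the ELR motif of the CXCR2 ligands and is best known, like Ppbp, from the granules of platelets.

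The 6 ligand genes lie together on mouse chromosome 5 (GRCm38), from 90759360 to 90905938, a stretch of 146579 bases that holds 7 protein-coding genes. All are on the plus strand, in the order Cxcl5 (ENSMUSG00000029371, 90759360 to 90761624), Ppbp (ENSMUSG00000029372, 90768518 to 90770063), Pf4 (ENSMUSG00000029373, 90772435 to 90773383), Cxcl3 (ENSMUSG00000029379, 90786103 to 90789600), Cxcl15, Cxcl1 (ENSMUSG00000029380, 90891241 to 90893115) and Cxcl2 (ENSMUSG00000058427, 90903871 to 90905938). Cxcl15, which was not followed further, had 1 UMI in injured neutrophil-like and 2 in injured stromal-like cells. Cxcr2 (ENSMUSG00000026180) lies on chromosome 1, plus strand, from 74153989 to 74161246.

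The genes of this cluster did not all have the same leading cell type in the injured library, as shown in the map of the locus. The sequences just upstream of 4 of them are printed to show which hold a kappaB motif and which do not. RefSeq promoter sequences (GRCm38.p6) were found for 6 of the 7 genes. Each sequence below is the plus strand from 130 to 31 bases upstream of the RefSeq start, read 5′ to 3′, and capitals mark matches to the kappaB motif, the sequence read by NF-kappaB factors. They lie at chr5:90891115-90891214 for Cxcl1, chr5:90903769-90903868 for Cxcl2, chr5:90785971-90786070 for Cxcl3 and chr5:90768388-90768487 for Ppbp.
Cxcl1: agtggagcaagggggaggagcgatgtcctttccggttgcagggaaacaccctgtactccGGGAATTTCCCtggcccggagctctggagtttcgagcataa
Cxcl2: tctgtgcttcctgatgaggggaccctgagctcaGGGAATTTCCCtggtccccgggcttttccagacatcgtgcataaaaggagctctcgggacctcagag
Cxcl3: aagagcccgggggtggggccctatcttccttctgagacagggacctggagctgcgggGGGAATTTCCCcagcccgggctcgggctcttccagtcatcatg
Ppbp: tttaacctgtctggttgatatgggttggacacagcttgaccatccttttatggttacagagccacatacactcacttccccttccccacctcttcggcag
Both strands were searched over 250 bases upstream of each start. Cxcl1, Cxcl2 and Cxcl3 each held the same 11 capital letters, which are 2 overlapping matches on opposite strands, starting 71, 97 and 73 bases upstream. Ppbp, Pf4 and Cxcr2 held no match in this window. Of 27025 mouse promoters of the same length, 7.01% held a match. A match is a description of letters and not of a bound site.

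**Figure D1:**
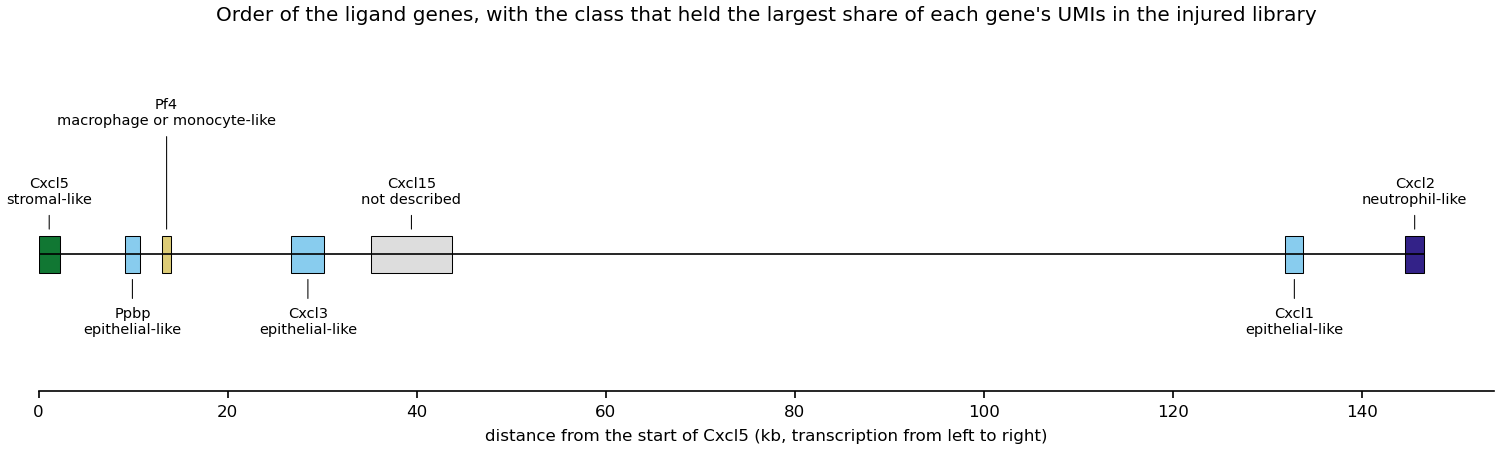
Order of the ligand genes along chromosome 5, by distance in kilobases from the start of Cxcl5, each coloured by the cell class that held the largest share of its UMIs in the injured library. The leading class was stromal-like for Cxcl5, epithelial-like for Ppbp, Cxcl3 and Cxcl1, macrophage or monocyte-like for Pf4 and neutrophil-like for Cxcl2, with near ties for Cxcl1 (43.0% epithelial-like, 40.9% stromal-like) and Cxcl2 (38.8% neutrophil-like, 37.8% epithelial-like) that depend on the cell filter and on the cells put in a class.

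After filtering, 6775 uninjured and 8346 injured cells remained, with medians of 10162 and 10599 UMIs per cell. The libraries share 13 barcodes among analysed cells. Cells were clustered without the 7 genes, and classes were named from marker lists that hold none of them. Epithelial-like cells made up 78.1% of the uninjured and 69.1% of the injured cells (5288 and 5763 cells), stromal-like cells, which include keratocytes and fibroblasts, 6.76% and 9.61% (458 and 802). Neutrophil-like cells numbered 2 and 1020, and macrophage or monocyte-like cells 16 and 344. There were 58 and 87 mural-like cells (pericytes and smooth muscle), 55 and 96 Schwann-like cells and 42 and 212 vascular endothelial-like cells. A further 853 uninjured and 6 injured cells, with few UMIs, stayed unnamed. The epithelial-like and stromal-like classes were made of largely different sub-clusters in the 2 libraries. Epithelial-like sub-clusters E1, E2, E3 and E7 held most uninjured cells and E0, E4, E5, E6 and E8 most injured cells, and stromal-like S1 and S3 held most uninjured cells and S0, S2 and S4 most injured cells. A ratio within a class therefore compares these different sub-clusters. All uninjured macrophage or monocyte-like cells fell in sub-cluster M5, which held 9 injured cells. M5 was led by the epithelial genes Krt12 and Aldh3a1 and the mast cell markers Mcpt4 and Cma1. 1 of the 16 uninjured cells held 135 of that class's 136 UMIs of mast cell markers and no UMI of the 7 genes.

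Levels are given as CPM, the UMIs of a gene in a class per 1000000 UMIs of that class. In injured epithelial-like cells, 6 of the 7 genes were at least 2-fold higher and none was 2-fold lower, where 14.5% of 14681 measured genes were 2-fold higher and 11.6% were 2-fold lower. In stromal-like cells all 6 genes with at least 20 UMIs were at least 2-fold higher (11.0% of 11955 genes, and 10.0% were 2-fold lower; Cxcr2 had too few UMIs). In mural-like cells 4 of 5 were at least 2-fold higher and none 2-fold lower (13.2% and 10.6% of 4662 genes). The median log2 ratio of these members was 5.93 in epithelial-like, 3.62 in stromal-like and 2.54 in mural-like cells, against 0.02, 0.00 and 0.21 for all measured genes, with genes under 3 UMIs in the uninjured class set at 3. Cxcl3, Cxcl5 and Ppbp in mural-like cells and Cxcl3, Ppbp and Pf4 in stromal-like cells had 0 uninjured UMIs. They passed the limit of 20 UMIs through the injured library alone and could only be called higher, so nothing is read from these counts and medians. With cells thinned to 1000 UMIs and shallower cells left out, Cxcl1 and Cxcl2 were the only mural-like members that still had 20 UMIs, and Cxcl2 was the one called higher. At a 4-fold limit 6 members were higher in epithelial-like, 5 in stromal-like and 3 in mural-like cells and none lower, where 7.18%, 3.55% and 1.63% of measured genes were 4-fold higher and 4.29%, 2.45% and 1.44% 4-fold lower.

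The small classes gave mixed directions. In macrophage or monocyte-like cells 3 of 5 measured members were at least 2-fold higher (8.59% of 3820 genes) and 2 at least 2-fold lower (15.7%), from only 16 uninjured cells. In vascular endothelial-like cells 2 of 4 were at least 2-fold higher and none lower (11.2% and 12.8% of 6385 genes). These were Cxcl2 and Pf4. When cells were thinned the member past 2-fold was Cxcl1 instead, at 154 and 314 CPM (6 and 65 UMIs), and Pf4 had 2 UMIs. Without thinning, Cxcl2, Pf4 and Ppbp in vascular endothelial-like cells and Ppbp in macrophage or monocyte-like cells had 0 uninjured UMIs. They were measured through the injured library alone and could only be called higher. Nothing is read from the counts of higher members in these classes, at 2-fold or at 4-fold. In Schwann-like cells only Cxcl1 had enough UMIs, and it was over 2-fold lower (6.63% of 3347 genes, with 17.8% higher). After thinning, Cxcl1 in Schwann-like cells had 8 and 7 UMIs (182 and 76.9 CPM), too few for a call, and with doublets kept 1 member was called higher and 0 lower. Shares of all genes are not given for any class with cells thinned or doublets kept. Nothing is read from the member counts of those settings. At the 4-fold limit 2 members were higher and 0 lower in macrophage or monocyte-like cells (0.838% and 4.4% of genes), 1 was higher and 0 lower in vascular endothelial-like cells (1.25% and 1.6%), and 0 passed in either direction in Schwann-like cells (1.82% and 1.25%).

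**Figure D2:**
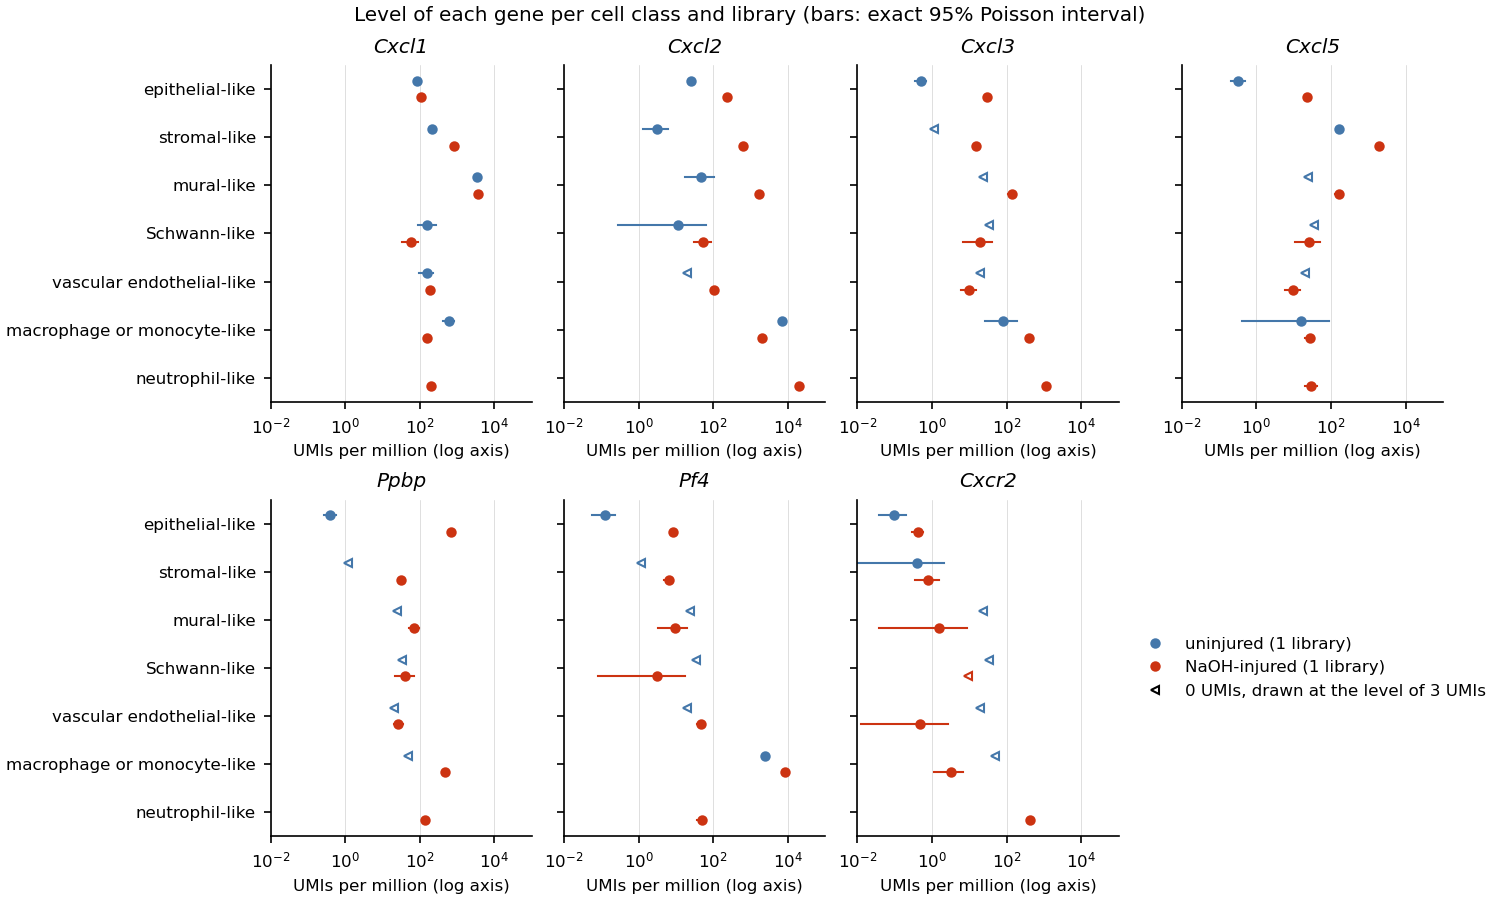
Level of each gene in each cell class (CPM, log axis), with 1 point per library, bars for the exact 95% Poisson interval, and open triangles at the level of 3 UMIs where none was seen. Cxcr2 stands out in neutrophil-like cells (421 CPM), Pf4 in macrophage or monocyte-like cells (8255 CPM when injured), and Cxcl1 is highest in mural-like cells of both libraries (3339 and 3541 CPM).

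The share of each class in the UMIs of a gene separated the ligands. In the injured library, stromal-like cells held 90.8% of the Cxcl5 UMIs (90.4 to 91.2%), epithelial-like cells 97.5% of the Ppbp UMIs (97.3 to 97.6%) and macrophage or monocyte-like cells 94.7% of the Pf4 UMIs (94.4 to 95.1%). Cxcl1, Cxcl2 and Cxcl3 were spread over several classes. No class held more than 43.0% of Cxcl1, 38.8% of Cxcl2 or 53.6% of Cxcl3. Shares depend on how many cells of a class were captured. They also depend on the lower limit of 500 UMIs per cell, which lies close to the neutrophil-like median of 852.5 UMIs.

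**Figure D3:**
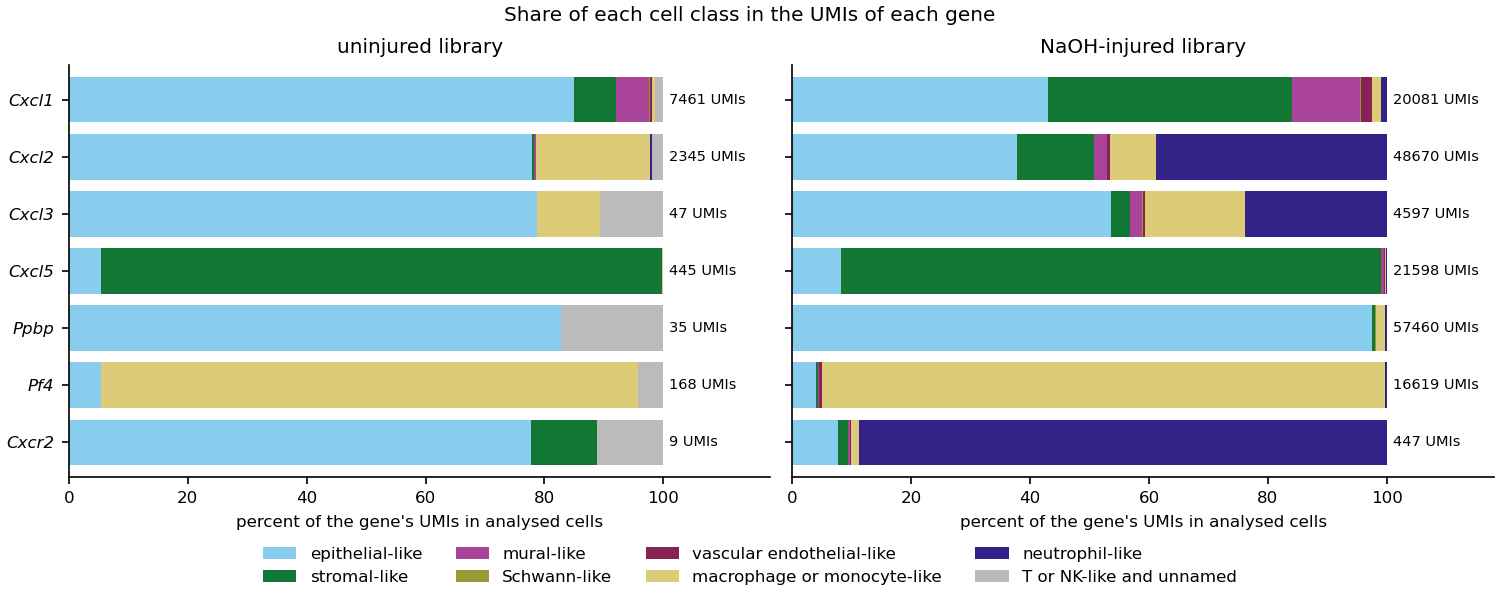
Share of each cell class in the UMIs of each gene (percent of the gene's UMIs in analysed cells), 1 panel per library. The epithelial-like share of Cxcl1 was 84.9% in the uninjured and 43.0% in the injured library, below the class's 94.4% and 83.4% of all UMIs. In the injured library neutrophil-like cells held 38.8% of Cxcl2 and 88.8% of Cxcr2, and 0.977% of all UMIs.

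Cxcl1 encodes KC, a CXCR2 ligand made by many non-blood cells. It had the highest level in mural-like cells of both libraries, at 3339 CPM (420 UMIs, in 40 of 58 cells) in the uninjured and 3541 CPM (2316 UMIs, in 78 of 87 cells) in the injured library. The ratio was 1.06 (0.955 to 1.18), an interval that includes no difference, and its log2 value of 0.08 became -0.08 when doublets were kept. Mural-like cells were 1.04% of the injured cells and held 11.5% (11.1 to 12.0%) of its Cxcl1 UMIs.

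In stromal-like cells Cxcl1 stood at 205 CPM (530 UMIs) in the uninjured and 813 CPM (8218 UMIs) in the injured library, 3.96-fold higher (3.62 to 4.33). A UMI was seen in 162 of 458 and 636 of 802 cells. Stromal-like cells held 7.10% of the uninjured and 40.9% of the injured Cxcl1 UMIs. In epithelial-like cells the level was 86.3 CPM (6336 UMIs) and 108 CPM (8644 UMIs), 1.25-fold higher (1.21 to 1.29), so Cxcl1 was the only member under 2-fold there. Their share of the gene's UMIs was 84.9% in the uninjured library, below their 94.4% of all UMIs there.

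Within the epithelium, Cxcl1 was uneven in both libraries. Of the uninjured sub-clusters, E1, led by Nppb, Mmp13 and Mmp10, was highest at 177 CPM (170.4 to 183) and held 40.1% of all uninjured Cxcl1 UMIs. E7, a cycling sub-cluster, stood at 103 CPM and E3, led by Fam169a, Aldh3a1 and Tkt, at 92.3 CPM. The sub-clusters E2 (Ly6g6c, Dsg1a) and E10 (Psca, Lce3a) were low, at 25.9 and 20.2 CPM. Of the injured sub-clusters, E6, led by Cald1, Acta2 and Actn1, was highest at 274 CPM (263 to 284). The cycling E5 stood at 147 CPM and the Gpha2-led E0 at 107 CPM. E4, led by Ltf, Krt19 and Krt4, and E8, led by Serpinb3a and Esp6, were lowest of the larger ones at 34.7 and 26.9 CPM. Acta2 is also a mural marker, and without the main cluster that carried it the epithelial-like share of injured Cxcl1 was 32.8% instead of 43.0%.

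Within the uninjured stroma, S3, led by Coch and Gsta3, held 70.0% of the stromal-like Cxcl1 UMIs, at 559 CPM (503.5 to 619). The keratocyte-type S1, led by Kera and Angptl7, stood at 80.5 CPM. The injured sub-clusters S0 (Ooep, Cxcl14, Tnfsf11), S2 (Chil1, Cemip, Lcn2) and S4 (Tagln, Spp1, Acta2) stood at 1069, 646 and 717 CPM, above the uninjured S3. S5, led by Chad and Comp, was the exception: it stood at 95.9 CPM (7 UMIs) in the uninjured and 108 CPM (12 UMIs) in the injured library.

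Other classes moved less or in the other direction for Cxcl1. Vascular endothelial-like cells stood at 151 and 193 CPM, a ratio of 1.27 (0.837 to 2.03). Schwann-like cells had 14 and 18 UMIs, 160 and 56.8 CPM, 2.81-fold lower in the injured library (1.30 to 5.99). Macrophage or monocyte-like cells stood at 601 CPM (38 UMIs) and 156 CPM (298 UMIs), 3.84-fold lower (2.67 to 5.40). The injured neutrophil-like cells stood at 201 CPM and held 0.941% of the gene's UMIs.

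Cxcl2 encodes MIP-2, a CXCR2 ligand produced by neutrophils and macrophages as well as by tissue cells. Its highest level was in the injured neutrophil-like cells, 20034 CPM from 18873 UMIs. A UMI was seen in 936 of 1020 of these cells, with a median of 12 UMIs in those cells and a highest value of 184. With neutrophil-like cells of at least 1000 UMIs thinned to that depth, 92.2% of 256 cells had a UMI, against 91.8% of all 1020. The 3 neutrophil-like sub-clusters differed: N2, led by Retnlg, Inhba and Prok2, stood at 31946 CPM, N0, with Ccl2 and Il1a among its leading genes, at 19273 CPM, and N1, led by the interferon-response genes Isg15 and Rsad2, at 12894 CPM. These sub-clusters were formed after the class values had been seen.

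Neutrophil-like cells held 38.8% of the injured Cxcl2 UMIs (38.3 to 39.2%) and epithelial-like cells nearly as many, 37.8% (37.4 to 38.2%). Under the stricter limit of 1000 UMIs per cell the neutrophil-like share was 19.7%. Stromal-like cells held 12.9%, macrophage or monocyte-like cells 7.82% and mural-like cells 2.20%. In the uninjured library, which had 2345 Cxcl2 UMIs against 48670, epithelial-like cells held 78.0% and the 16 macrophage or monocyte-like cells 19.1% (17.5 to 20.8%).

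In stromal-like cells Cxcl2 went from 8 UMIs (3.10 CPM) to 6289 UMIs (622 CPM), 201-fold higher (102 to 465). With doublets kept the log2 ratio was 6.64 in place of 7.65. Thinning left no uninjured UMI, and the log2 ratio was then 6.21 with that count set at the floor for low counts. A UMI was seen in 6 of 458 and 442 of 802 cells. S0 and S4 were highest at 834 and 743 CPM, S2 stood at 341.5 CPM and S6, led by Clec3b and Pi16, at 174 CPM, while S5 had 2 UMIs. The uninjured S3, which was high in Cxcl1, had 2 Cxcl2 UMIs (3.01 CPM), so these ligands did not share a pattern in the uninjured stroma.

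In epithelial-like cells Cxcl2 stood at 24.9 CPM and 229 CPM, 9.19-fold higher (8.76 to 9.65). Few uninjured cells carried it: 314 of 5288 had a UMI, and 97 of them held 80% of the class's UMIs. In the injured library 2015 of 5763 cells had a UMI. The injured sub-clusters followed the order of Cxcl1 at the top, with E6 at 584 CPM (569 to 599.8), E5 at 312 CPM and E0 at 194 CPM. E4 stood at 126 CPM, E8 at 49.7 CPM and E9, led by Apoe and Id1, at 11.5 CPM (5 UMIs). E5 and E9 had at least 20 cells in each library. In the uninjured library E5 stood at 2.50 CPM (2 UMIs) and E9 at 24.0 CPM (57 UMIs). E9 was thus not higher in the injured library, and its intervals overlap (18.2 to 31.1 uninjured, 3.75 to 27.0 injured). Of the E6 cells, 23.7% carried 10 or more Cxcl2 UMIs. The highest uninjured sub-cluster was again E1, at 48.5 CPM.

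Mural-like cells went from 6 UMIs (47.7 CPM) to 1071 UMIs (1637 CPM) of Cxcl2, 34.3-fold higher (15.7 to 93.8). Cxcl1 in the same cells differed by 1.06-fold. In vascular endothelial-like cells no uninjured UMI was seen, and the injured level was 103 CPM. This was 5.22-fold higher with the uninjured count set at the floor for low counts (lower limit 4.21). The injured level rested on few cells: 5 of 212 held 80% of the 212 UMIs. Thinned, the injured level was 121 CPM (25 UMIs), again with no uninjured UMI. Schwann-like cells had 1 and 17 UMIs.

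Macrophage or monocyte-like cells showed the opposite direction for Cxcl2. The uninjured level was 7083 CPM (448 UMIs, in 10 of 16 cells, at most 96 in 1 cell) and the injured level 1996 CPM (3806 UMIs, in 216 of 344 cells), 3.55-fold lower (3.21 to 3.92). The injured sub-clusters ranged widely, from 4635 CPM in M0, led by Arg1, Ccl24 and Mmp12, and 2045 CPM in M2, led by Ccl8, Gas6 and Cd163, down to 93.6 CPM in M3, which was led by Ccr7 and dendritic cell genes. In M0 84 of 95 cells had a UMI. The uninjured cells of this class also had the higher levels of Il1a (221 against 15.2 CPM), Tnf (395 against 58.7 CPM) and Il1b (980 against 232 CPM), cytokines that induce these chemokines, and of the early response gene Egr1 (474 against 70.8 CPM). Whether tissue digestion had a part in these values was not tested.

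Cxcl3 encodes another closely related CXCR2 ligand. It was sparse in the uninjured library, with 47 UMIs against 4597 in the injured one. In epithelial-like cells it went from 37 UMIs (0.504 CPM) to 2462 UMIs (30.6 CPM), 60.8-fold higher (44.0 to 86.6). Epithelial-like cells held 53.6% (52.1 to 55.0%) of the injured Cxcl3 UMIs, neutrophil-like cells 23.9% and macrophage or monocyte-like cells 16.8%. The epithelial pattern differed from that of Cxcl1 and Cxcl2. E4, which was low in Cxcl1, was highest in Cxcl3 at 82.4 CPM (78.6 to 86.4), in 287 of 886 cells, and held 37.3% of all injured Cxcl3 UMIs. E6 stood at 24.3 CPM, E8 at 13.5 CPM, E0 at 10.8 CPM and E5 at 8.02 CPM.

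The highest class level of Cxcl3 was in injured neutrophil-like cells, at 1164 CPM, in 272 of 1020 cells. N0 and N2 stood at 1727 and 1336 CPM and N1 at 353 CPM. Macrophage or monocyte-like cells had 5 and 770 UMIs, 79.0 and 404 CPM, 5.11-fold higher (2.18 to 15.8), so Cxcl3 differed in direction from Cxcl1 and Cxcl2 in that class. M0 accounted for 83.1% of the class's Cxcl3 UMIs, at 1263 CPM in 70 of 95 cells. Stromal-like cells went from 0 to 14.8 CPM, 12.8-fold higher with the 0 set at 3 UMIs (lower limit 10.3). Mural-like cells went from 0 to 139 CPM, 5.83-fold higher on the same basis (lower limit 4.65). In vascular endothelial-like cells 17 of 20 Cxcl3 UMIs lay in 1 cell.

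Cxcl1, Cxcl2 and Cxcl3 are close in sequence, and neither the labels nor the file headers say how reads that match more than 1 of them were counted. Their order over sub-clusters differed, as given above, and the part of shared reads was not tested.

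Cxcl5 encodes LIX, a CXCR2 ligand known from fibroblasts and epithelia. It was a stromal gene in both libraries: stromal-like cells held 94.4% of 445 uninjured and 90.8% of 21598 injured UMIs. Their level was 163 CPM (420 UMIs, in 79 of 458 cells) and 1940.1 CPM (19608 UMIs, in 666 of 802 cells), 11.9-fold higher (10.8 to 13.2), with a median of 19 UMIs in the injured cells that had it. Thinned, the log2 ratio was 2.95 in place of 3.57, and 58.0% of injured cells had a UMI in place of 83.0%.

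In the uninjured stroma Cxcl5 was held almost wholly by S3. That sub-cluster of 147 cells had 409 of the 420 UMIs, at 616 CPM (558 to 679), in 76 cells. The keratocyte-type S1 of 283 cells had 9 UMIs, all in 1 cell. In the injured stroma the gene was broad: S0 stood at 2870.2 CPM, S7 at 1593 CPM, S4 at 1506 CPM, S2 at 1297 CPM and S6 at 557 CPM. S7 is led by the epithelial genes Lgals7 and Krt14. S5 again stood apart, with 2 UMIs in each library. S0 held 51.5% of all injured Cxcl5 UMIs.

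Epithelial-like cells had 24 uninjured UMIs (0.327 CPM) and 1779 injured UMIs (22.1 CPM) of Cxcl5, 67.7-fold higher (45.4 to 106). After thinning 1 uninjured UMI was left, and no ratio was read. E4 was highest here too, at 54.0 CPM in 285 of 886 cells with up to 58 UMIs in 1 cell, and the other injured epithelial sub-clusters of at least 20 cells lay between 9.24 and 12.7 CPM. Mural-like cells went from 0 to 159 CPM, 6.67-fold higher with the 0 set at 3 UMIs (lower limit 5.33). Macrophage or monocyte-like cells had 1 and 51 UMIs, and injured neutrophil-like cells 28.

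**Figure D4:**
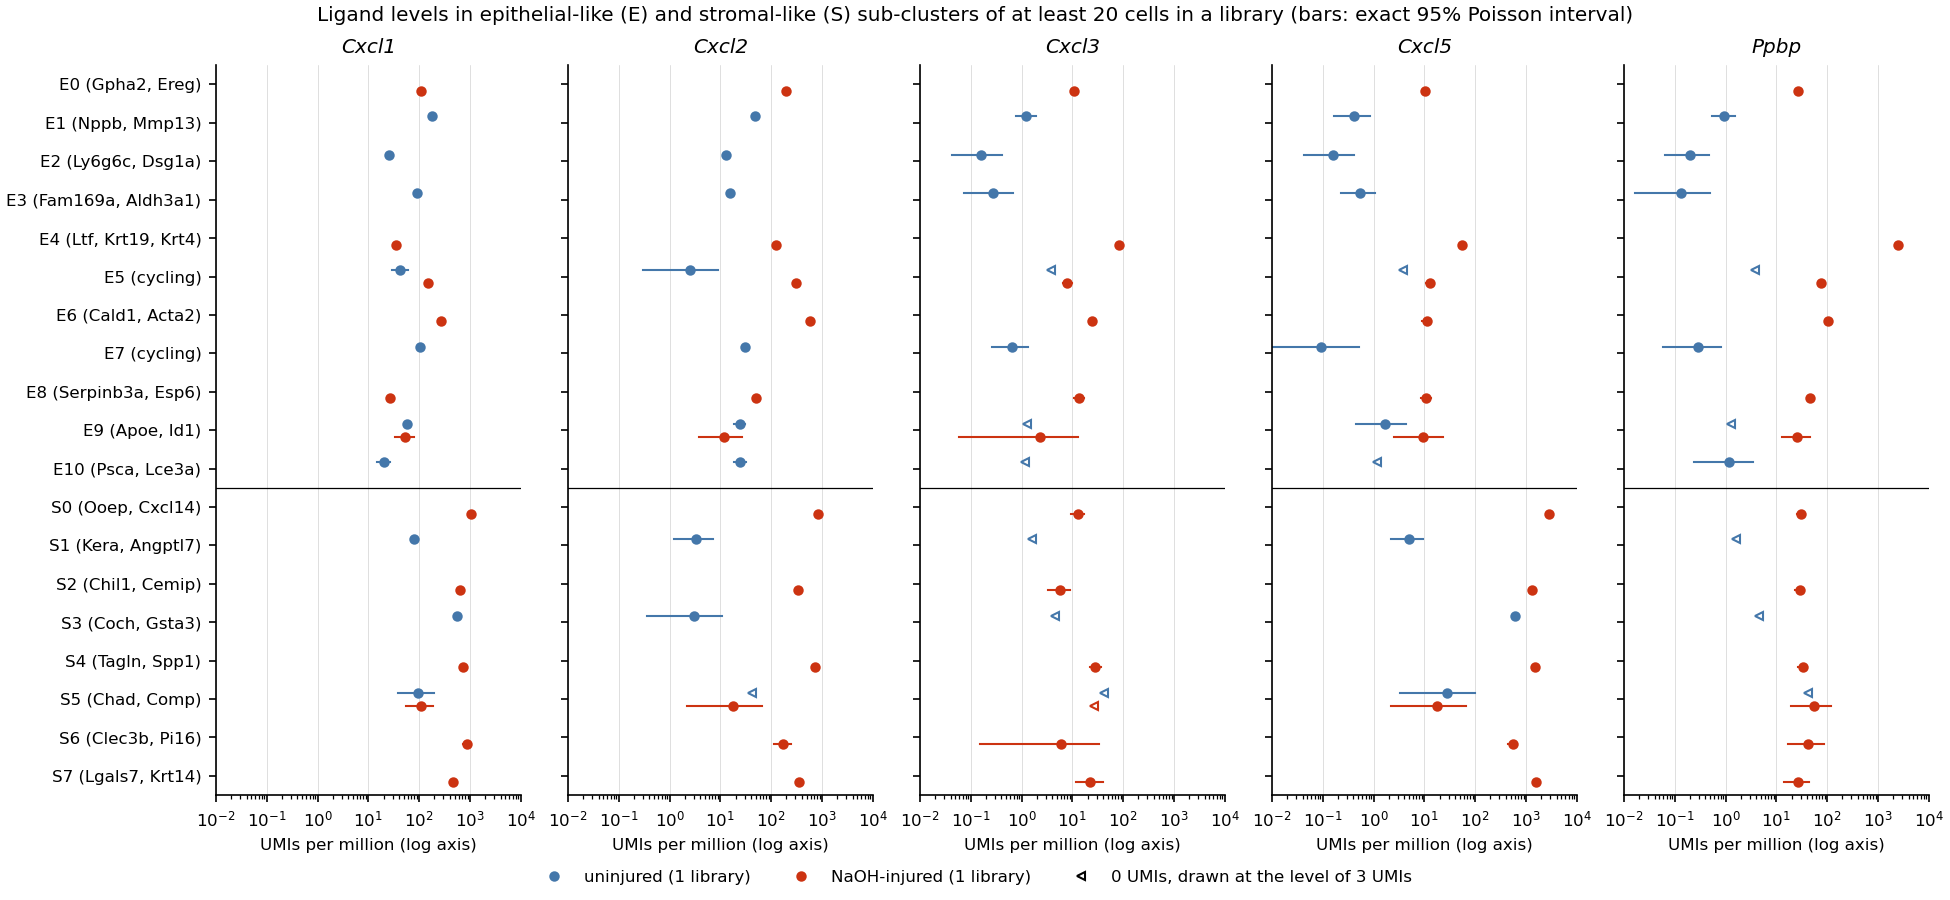
Ligand levels in epithelial-like (E) and stromal-like (S) sub-clusters with at least 20 cells in a library (CPM, log axis; bars are exact 95% Poisson intervals). Ppbp peaks in E4 at 2539 CPM and Cxcl3 in E4 at 82.4 CPM, while Cxcl1 and Cxcl2 peak in E6 among injured epithelial sub-clusters, and uninjured Cxcl5 sits in S3.

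Ppbp had the largest ratio of the 7 genes. In epithelial-like cells it went from 29 UMIs (0.395 CPM) to 56005 UMIs (697 CPM), 1765-fold higher (1229 to 2636). After thinning no uninjured epithelial-like cell had a UMI. With that count set at the floor for low counts, the log2 ratio was 9.38 in place of 10.79. The epithelial values rested on E4, which was 10.6% of injured cells and held 92.0% (91.8 to 92.2%) of all injured Ppbp UMIs, at 2539 CPM in 738 of 886 cells. E4 had high levels of the conjunctiva-type keratins Krt4, Krt13 and Krt19 (2954, 5400.4 and 2611 CPM) and held 5 uninjured cells, so there is no uninjured counterpart for it in these libraries.

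Within E4 the Ppbp UMIs were unevenly spread over cells. The highest cell had 1001 UMIs, 428 cells had 10 or more, and 166 cells held 80% of the sub-cluster's UMIs. The other injured epithelial sub-clusters were far lower, with E6 at 104 CPM, E5 at 76.4 CPM, E8 at 45.9 CPM, E0 at 27.3 CPM and E9 at 25.4 CPM. Uninjured sub-clusters had between 0 and 16 UMIs each.

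Platelets are the textbook source of Ppbp, so their markers were measured in the same cells. A list of 10 platelet and megakaryocyte genes, among them Itga2b and Gp9, summed to 7.40 CPM in E4, with 7 of 10 at 0. In the injured macrophage or monocyte-like cells the list summed to 3.67 CPM, with 8 of 10 at 0.

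Macrophage or monocyte-like cells had no Ppbp UMI in the uninjured library and 894 UMIs (469 CPM, in 140 of 344 cells) in the injured one. This was 9.88-fold higher with the 0 set at 3 UMIs (lower limit 8.02). M0 stood at 963 CPM, M2 at 703 CPM and M1, led by Chil3, Ms4a4c and Ccr2, at 220 CPM, while M3 had 5 UMIs. In stromal-like cells 313 UMIs (31.0 CPM) were spread over 246 of 802 cells with at most 4 in a cell. This was 26.6-fold above an uninjured count of 0 set at 3 UMIs (lower limit 21.5). Mural-like cells stood at 71.9 CPM, with 34 of 47 UMIs in 1 cell, and vascular endothelial-like cells at 26.7 CPM.

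Pf4 was a macrophage gene in both libraries. Macrophage or monocyte-like cells stood at 2403 CPM (152 UMIs, in 8 of 16 cells) in the uninjured and 8255 CPM (15744 UMIs, in 233 of 344 cells) in the injured library, 3.44-fold higher (2.93 to 4.06). They held 90.5% (85.0 to 94.5%) of 168 and 94.7% of 16619 UMIs. M0 and M2 were the highest injured sub-clusters, at 15185 CPM in 94 of 95 cells and 14263 CPM in 70 of 72 cells. M1 stood at 3703 CPM and the Ccr7-led M3 at 2 UMIs. The 9 injured cells of M5, the sub-cluster of the uninjured cells, stood at 2216 CPM (1964 to 2491), beside 2403 CPM in the uninjured cells. Those 9 cells had a median of 13422 UMIs, against 4628.5 in the injured class.

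Outside that class Pf4 was low. Epithelial-like cells had 9 and 662 UMIs, 0.123 and 8.24 CPM, 67.2-fold higher (35.2 to 148), and thinning left 1 uninjured UMI. Stromal-like cells went from 0 to 6.33 CPM. This was 5.44-fold higher with the 0 set at the floor for low counts (lower limit 4.30). In vascular endothelial-like cells 80 of 95 UMIs lay in 1 cell.

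Cxcr2, the receptor, was carried by neutrophil-like cells. The injured neutrophil-like cells had 397 of the library's 447 Cxcr2 UMIs, 88.8% (85.5 to 91.6%), at 421 CPM (381 to 465). A UMI was seen in 296 of 1020 cells, 29.0%, at a median depth of 852.5 UMIs. Epithelial-like cells, taken for comparison, had a UMI in 0.555% of cells at a median depth of 11666 UMIs. Of neutrophil-like cells thinned to 1000 UMIs, 28.1% had one. The stricter cell filter lowered the neutrophil-like share of Cxcr2 UMIs to 69.3%.

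The 3 neutrophil-like sub-clusters differed less in the receptor than in Cxcl2. N1 stood at 538 CPM (461 to 625), N2 at 479 CPM (392 to 580) and N0 at 295 CPM (244 to 354). The intervals of N1 and N2 overlap, and that of N0 lies below both. N1, highest in Cxcr2, was lowest in Cxcl2. In the uninjured library Cxcr2 had 9 UMIs, none in its 2 neutrophil-like cells and 7 in epithelial-like cells. Epithelial-like cells had 34 injured UMIs, 4.44-fold higher (1.94 to 11.9), stromal-like cells 1 and 8 UMIs and macrophage or monocyte-like cells 0 and 6.

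RNA from lysed cells enters droplets of other cells, so each gene's level outside its main source was set beside that of the source's own markers. Cxcr2 stood at 0.1004% of the neutrophil-like level in injured epithelial-like cells, where 9 neutrophil markers had a median of 0.106% (0.0776 to 0.241%). In stromal-like cells the values were 0.188% and 0.183%, and in macrophage or monocyte-like cells 0.747% and 0.810%. In these 3 classes Cxcr2 thus lay near the markers' median. In sub-cluster E5 it stood at 0.141% on 8 UMIs, above all 9 markers (0.0289 to 0.135%), and in E6 at 0.124% on 5 UMIs, above 8 of 9. Its source in these cells was not tested. Pf4 in epithelial-like cells, at 0.0998% of the macrophage level, was near the macrophage markers' median of 0.0865% (0.0722 to 2.0%), and the stromal-like value of 0.0767% lay below the markers' median of 0.129%. The higher Pf4 of injured epithelial-like and stromal-like cells and the higher Cxcr2 of injured epithelial-like cells are among the counts above, and each lay within the range of its source's markers at class level.

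Other ligands stood above the markers of their source. Cxcl2 in epithelial-like cells was at 1.14% of the neutrophil-like level, above all 9 neutrophil markers, and in stromal-like cells at 3.11%, above 8 of 9. The summed neutrophil markers themselves went from 28.8 to 109 CPM in epithelial-like and from 42.3 to 161 CPM in stromal-like cells. Cxcl3 in E4 was at 7.08% against a marker median of 0.188% (0.148 to 0.587%), and in M0 at 108% of the neutrophil-like level. Cxcl5 in epithelial-like cells was at 1.14% of the stromal-like level, above all 9 stromal markers (0.381 to 0.623%), and in neutrophil-like cells at 1.53%, beside a marker median of 1.59%.

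For Ppbp the source was E4 and the markers were the 4 keratins Krt4, Krt13, Krt19 and Krt7. In M0 Ppbp was at 37.9% of the E4 level and these keratins at a median of 1.74% (0.981 to 2.0%), and in M2 at 27.7% and 1.02%. In stromal-like cells Ppbp was at 1.22% beside 0.849% (0.772 to 1.36%) and in neutrophil-like cells at 5.43% beside 4.95% (4.20 to 6.25%), within the range of the keratins. The stromal-like range is widened by S7, where the keratins reached 7.80%. In S0 Ppbp was at 1.21%, above all 4 keratins (0.717 to 1.05%), and it also lay above all 4 in S2, S4, S5 and S6. The source of Ppbp in stromal-like and neutrophil-like cells was not tested.

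**Figure D5:**
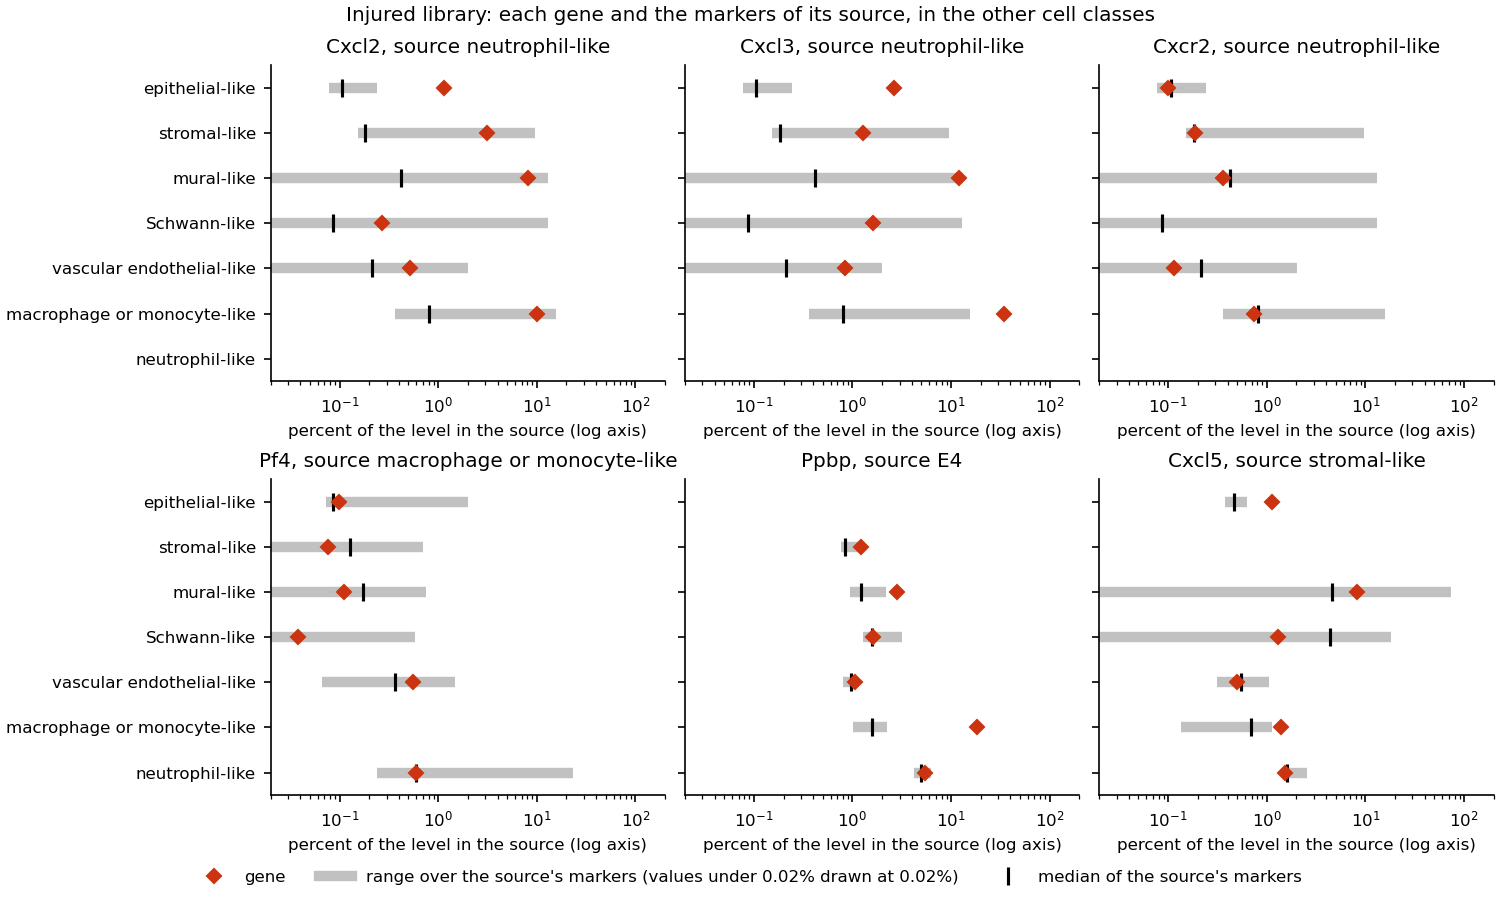
Level of 6 of the genes (all but Cxcl1) in other cell classes of the injured library as a percent of its level in its source class or sub-cluster (log axis), beside the same percent for the markers of that source. Grey bars span the markers, with a black line at their median. Cxcr2 lies within the range of the neutrophil markers in each class where it had a UMI, whereas Cxcl2 in epithelial-like cells, at 1.14%, and Ppbp in macrophage or monocyte-like cells, at 18.5%, lie above every marker of their source.

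Genes with the most similar pattern were taken over 30 units (a class or sub-cluster in 1 library), by Pearson's r of log2(CPM + 1) among 4114 genes. These units share 2 libraries and the r values are descriptions. Cxcl2 and Cxcl3 were among each other's closest 3 genes (r = 0.87). Cxcl3 was also close to Ccl4 (0.88) and Wfdc17 (0.88), and Cxcl2 to the neutrophil gene S100a8 (0.86). Ppbp was closest to Ltf (0.84), which encodes lactoferrin, and to Cxcl3 (0.84). Cxcl5 followed Ccn5 (0.94) and Mmp3 (0.93), Pf4 the macrophage gene Mrc1 (0.91), Cxcr2 the neutrophil gene Retnlg (0.98), and Cxcl1 followed Thy1 (0.84) and Adra2a (0.83).

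Lists of pathway genes were set beside the members. Of the cytokines and receptors that induce these chemokines, 8 of 12 measured genes were at least 2-fold higher in injured stromal-like cells and 0 lower. Their median log2 ratio was 2.07, against 0.00 for all measured genes. Of the 16 genes of this list found in the matrices, 5 had their highest level in neutrophil-like cells, and the part of free RNA was not tested. Il1r1, the receptor for interleukin-1, went from 8.92 to 130 CPM, 14.6-fold higher (9.70 to 23.2). Osmr, the oncostatin M receptor, went from 17.8 to 132 CPM, 7.39-fold higher (5.51 to 10.1). In epithelial-like cells 5 of 14 were higher and 1 lower, and in mural-like cells 0 of 6 higher and 2 lower. Vascular endothelial-like cells had 0 of 6 higher and 3 lower (11.2% and 12.8% of all measured genes). Macrophage or monocyte-like cells had 0 of 7 higher and 5 lower (8.59% and 15.7%), and Schwann-like cells 1 of 2 higher and 0 lower (17.8% and 6.63%). Of all measured genes, 14.5% were at least 2-fold higher and 11.6% lower in epithelial-like cells. The shares were 11.0% and 10.0% in stromal-like cells and 13.2% and 10.6% in mural-like cells. They are also the comparison for the lists below in these classes, at the same minimum of UMIs. In every list a gene with under 3 UMIs in an uninjured class could not be called lower. Counts of higher and lower genes are therefore not set against each other. Mural-like Il6, an interleukin that these cells carried at high level in both libraries, stood at 1638 and 1624 CPM.

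Of 14 genes for transcription and mRNA turnover of the chemokines, 3 were at least 2-fold higher in stromal-like cells and none lower, among them Nfkb1, an NF-kappaB subunit, at 47.7 and 243 CPM, and Tnfaip3, an inhibitor of NF-kappaB signalling, at 20.9 and 66.0 CPM. In epithelial-like cells 1 was higher and 1 lower: Zfp36, whose product destabilises chemokine mRNAs, stood at 481 and 124 CPM. In mural-like cells 1 of 13 was higher and 3 were lower, with Zfp36 at 1312 and 491 CPM and Cebpb at 3935 and 1358 CPM. Zfp36 is also among the early response genes that tissue digestion can raise. Of those 12 genes, none was 2-fold higher in these 3 classes, and 5 were 2-fold lower in epithelial-like, 4 in stromal-like and 10 in mural-like cells. None of the genes for transcription and mRNA turnover was higher in vascular endothelial-like, Schwann-like or macrophage or monocyte-like cells. There 6 of 13, 4 of 9 and 5 of 13 were lower, beside 12.8%, 6.63% and 15.7% of all measured genes.

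Other factors that attract or feed neutrophils were also compared. Of 8 tissue-derived factors, 5 were at least 2-fold higher in epithelial-like cells and 5 in stromal-like cells, none lower. The summed level of this list in epithelial-like cells was 2336 CPM in the uninjured and 2740 CPM in the injured library. Of the 8 genes, 3 had their highest level in injured neutrophil-like cells, and the part of free RNA was not tested. In stromal-like cells Saa3, an acute-phase protein, went from 3 to 10724 UMIs (1.16 to 1061 CPM). Csf3, which encodes G-CSF, went from 0 to 108 CPM, 92.8-fold higher with the 0 set at 3 UMIs. Of the other CXC ligands, 3 of 5 were higher in stromal-like cells, with Cxcl14 at 160.1 and 2083 CPM and Cxcl12 at 36.4 and 153 CPM. In mural-like cells 3 of 3 were lower, with Cxcl10 at 628 and 216 CPM.

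Decoys and binding partners limit where these ligands are held. Of this list 0 of 4 were 2-fold higher and 2 lower in epithelial-like cells: Sdc1 stood at 308 and 153 CPM and Sdc4 at 1011 and 505 CPM, both cell-surface proteoglycans and both at 2-fold. In stromal-like cells 1 of 4 was higher and 1 lower, with Ackr3, a scavenging receptor of Cxcl12, at 8.53 and 67.2 CPM. Ackr1, the decoy receptor of CXC and CC chemokines on venules, had its highest level in uninjured vascular endothelial-like cells, at 729.8 CPM, and stood at 174 CPM in the injured ones.

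Of 18 genes of CXCR2 signalling, 6 had their highest level in injured neutrophil-like cells, among them Rac2, a GTPase of neutrophil movement, at 446 CPM. In epithelial-like cells 4 of 14 were higher and 1 lower, and in stromal-like cells 1 of 11 higher and 1 lower. With a minimum of 50 UMIs these were 1 of 9 higher and 0 of 8 higher, with 1 lower in each, so nothing is read from the counts. Rac2, 1 of the 4, stood at 0.585 CPM in injured epithelial-like cells. Of 9 other receptors for attractants and growth factors of neutrophils, 8 were highest in neutrophil-like cells. Cxcr1, a related CXC chemokine receptor, had 5 UMIs in injured neutrophil-like cells (5.31 CPM), against 397 for Cxcr2. Of 8 listed enzymes that trim these chemokines, 2 of 4 measured were higher in epithelial-like and 3 of 5 in stromal-like cells, with 1 lower in each. With a minimum of 50 UMIs the stromal-like count was 1 of 3. Mmp9, among those higher in epithelial-like cells, stood at 1.39 CPM there and at 1259 CPM in injured neutrophil-like cells, and the part of free RNA was not tested.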

How the data were processed

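Single-cell RNA was measured in 2 mouse cornea and limbus libraries on a 10x Genomics platform. The deposited matrices hold raw UMI counts per gene and barcode. Per the file headers they are output of Cell Ranger 7.0.1. The genome build was GRCm38 per the submitters' processing notes. The matrices hold 7490 and 9399 barcodes and 85457541 and 108863350 UMIs. No column of per-sample values was left unused.

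Barcodes under 300 genes, under 500 UMIs or over 20% mitochondrial UMIs were dropped. Scrublet's own threshold marked 0.448% and 0.033% of cells, so the 375 and 657 cells with the highest scores were removed, at 0.8% per 1000 barcodes. Cells were clustered with scanpy 1.11.5 (2000 variable genes without the 7 members, 30 components, Leiden resolution 1) in Python 3.11.15. Classes were named from marker lists. Epithelial-like and stromal-like cells were clustered again at resolution 0.5. Gene positions matched 32235 of 32285 identifiers.

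Raw UMIs were summed per class and library. Levels have exact Poisson intervals, ratios conditional exact binomial intervals and shares Clopper-Pearson intervals, all at 95%. A class count below 3 entered a ratio as 3. A gene entered the 2-fold counts with at least 20 UMIs over both libraries in a class. The 2-fold counting was tested on simulated data. With 1 library per group no test was made. All 7 members are named. Of each list, at most 4 genes per class are named, those with the largest ratio among genes of at least 50 CPM and 25% of the highest class. Rac2, Cxcr1 and Cxcl15 were added after their values were seen. Sub-clusters N0 to N2 and M0 to M5 were also formed afterwards. The members and lists were chosen with earlier results of these data known.

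Alternatives were a stricter filter, no doublet removal, other clustering settings, cells or classes weighted alike, thinning to 1000 UMIs, a 4-fold limit, and the removal of doubtful clusters.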

Additional observations from a re-analysis of the deposited data

Results flagged for a closer look

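Cxcl1 and Cxcl2 differed in opposite directions between cell types of the same pair of libraries. The log2 ratio of Cxcl1, injured over uninjured, was 1.98 in stromal-like cells, -1.49 in Schwann-like cells and -1.94 in macrophage or monocyte-like cells. That of Cxcl2 was 3.20 in epithelial-like, 7.65 in stromal-like, 5.10 in mural-like and 2.38 in vascular endothelial-like cells, and -1.83 in macrophage or monocyte-like cells. With 1 library per group the difference between cell types was not tested. The negative values rest on 14 and 18 UMIs of Cxcl1 in Schwann-like cells and on 16 uninjured macrophage or monocyte-like cells.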

How the results depend on the processing

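No paired analysis was possible because each group has 1 library. The Schwann-like count went from 0 higher and 1 lower to 1 higher and 0 lower with doublets kept. No other result changed direction past its limit. Of the shares, counts and highest levels, 158 values stayed within their interval or within 1.5 times and 37 moved. Of the log2 ratios, 210 stayed and 32 moved, and of the other values 43 stayed and 8 moved. Under the stricter filter, which removes most neutrophil-like cells, the neutrophil-like share was 19.7% for Cxcl2 and 69.3% for Cxcr2, and the epithelial-like share 62.9% for Cxcl3 and 97.6% for Ppbp. With doublets kept, the shares in the leading class (epithelial-like for Cxcl1, Cxcl3 and Ppbp, neutrophil-like for Cxcl2 and Cxcr2, stromal-like for Cxcl5, macrophage or monocyte-like for Pf4) were 41.8% for Cxcl1, 38.3% for Cxcl2, 50.7% for Cxcl3, 89.6% for Cxcl5, 91.1% for Ppbp and 93.9% for Pf4, and 1 member was higher and 0 lower in Schwann-like cells. With each class weighted alike the same shares were 2.12% for Cxcl1, 80.8% for Cxcl2, 1.72% for Cxcl3, 87.7% for Cxcl5, 47.3% for Ppbp, 98.1% for Pf4 and 98.5% for Cxcr2, since the number of cells in a class then has no weight. Without the epithelial-like cluster that carries Acta2, a setting chosen after seeing the data, they were 32.8% for Cxcl1, 45.0% for Cxcl2, 50.4% for Cxcl3, 91.5% for Cxcl5 and 95.5% for Pf4. Thinned to 1000 UMIs, where members under 20 UMIs were not counted, 1 member was higher in mural-like cells, 1 in vascular endothelial-like cells and 0 lower in Schwann-like cells. At the 4-fold limit 1 was higher in vascular endothelial-like cells, and 0 were lower in Schwann-like and in macrophage or monocyte-like cells. At sub-cluster resolution 0.3 the highest level was 1914 CPM for Ppbp and 65.0 CPM for Cxcl3 in injured epithelial-like cells, and 978 CPM for Cxcl5 and 849 CPM for Cxcl1 in uninjured stromal-like cells. At resolution 1 it was 2583 CPM for Ppbp, and 3446 CPM for Cxcl5 and 1324 CPM for Cxcl1 in injured stromal-like cells. For all other moves the cause was not tested. The macrophage or monocyte-like class could not be run without M5, which holds every uninjured cell. Cxcr2 had 9 UMIs in the uninjured library, which held 2 neutrophil-like cells.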
